A study of Mus musculus with 4 samples.

Results

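The genes of oxidative phosphorylation (OXPHOS) were compared between cells positive and cells negative for Mmp3 in mouse subcutaneous fat. Members were chosen by gene symbol alone: the mitochondrially encoded mRNAs of the respiratory chain and ATP synthase, and the nuclear genes whose symbols begin as those of subunits of complexes I to V do. Of 35580 genes with a matched transcript, 98 met this rule. Mitochondrial DNA encodes 13 of them, of which 7 belong to complex I, 1 to complex III, 3 to complex IV and 2 to complex V. The nucleus encodes the other 85, of which 37 were counted to complex I, 4 to complex II, 8 to complex III, 18 to complex IV and 18 to complex V. Assembly factors were left out, Cyc1 and Ndufab1 lie outside the rule, and Ndufa4, known as a complex IV subunit, was counted to complex I by its symbol.

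OXPHOS complexes sit in the inner mitochondrial membrane, where complexes I to IV pass electrons from NADH and succinate to oxygen, complexes I, III and IV pump protons, and complex V, the ATP synthase, uses the proton gradient to make ATP. Complexes I, III, IV and V are built from subunits of both genomes, whereas complex II is wholly nuclear encoded. Mitochondrial mRNAs are cut from long transcripts that cover nearly the whole circular genome, while each nuclear subunit has its own promoter. Adipose tissue is known for OXPHOS mainly through brown and beige adipocytes, whose mitochondria are many. The cells here came from the stromal vascular fraction, the part of fat that remains once adipocytes have been removed.

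RNA sequencing covered 4 libraries, 2 per group, numbered 1 and 2 in each group. Every library came from wild-type C57BL/6 mice, with no treatment or age in the labels. Mmp3 encodes stromelysin, a secreted protease that cuts extracellular matrix. The labels give a reagent code for how cells were told apart, but not the method, nor how many animals stand behind a library, so the spread behind a p-value is that between these libraries and may be technical.

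Total estimated counts were 19026779 and 20286221 in the Mmp3 positive libraries and 18629081 and 17693755 in the Mmp3 negative libraries. Mmp3 itself, the gene behind the group names, had 4161 and 3409 CPM in Mmp3 positive cells, against 106 and 130.5 CPM in Mmp3 negative cells, a log2 fold change of 4.999 (SE 0.21, edgeR quasi-likelihood test, Benjamini-Hochberg adjusted p = 0.00793; 0.545 with limma on TPM). CPM are counts scaled to a common library size after TMM normalisation. All 14 fibroblast markers held counts in every library, with summed levels of 29773 and 37657 CPM in Mmp3 positive cells and 22016 and 31252 CPM in Mmp3 negative cells. At an unadjusted p under 0.05, 2 of the 14, Pdgfra and Gsn, were higher and 0 lower, against 5.62% and 3.25% of all genes tested. Of the 14, 10 had a log2 fold change above 0. Several lists of markers of other cells had lower sums in Mmp3 positive cells. Lower at the same cut were 7 of 12 tested pericyte and smooth muscle markers, 4 of 11 macrophage markers and 3 of 9 endothelial markers. The 12 pericyte and smooth muscle markers summed to 108 to 112 CPM in Mmp3 positive cells and to 787 to 855 CPM in Mmp3 negative cells, with Lmod1 at 0 in both Mmp3 positive libraries and Rgs5, Kcnj8 and Cnn1 at 0 in 1 Mmp3 negative library each. For the 12 macrophage and monocyte markers the sums were 51.7 to 53.4 CPM in Mmp3 positive cells and 225 to 371 CPM in Mmp3 negative cells, with Adgre1 at 0 in both Mmp3 positive libraries and Mrc1 at 0 in both Mmp3 negative ones. For the 12 endothelial markers they were 107 to 110 CPM in Mmp3 positive cells and 203 to 292 CPM in Mmp3 negative cells, with Sox17 at 0 in all 4 libraries. In bulk RNA, fewer cells of a type and less RNA per cell cannot be told apart, and the part of these cells in the OXPHOS values was not tested.

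No OXPHOS gene passed the test of Mmp3 positive against Mmp3 negative cells. Of the 98 members, 90 held enough counts to be tested, all 13 mitochondrial and 77 nuclear ones, and 0 of the 90 passed an adjusted p of 0.05 in edgeR's quasi-likelihood test. The same test called 3 of 14185 genes, or 0.0211%. At an unadjusted p under 0.05 there were 4 members higher and 1 lower in Mmp3 positive cells, against 5.62% and 3.25% of all genes tested, or 8.87% in either direction. The 4 were Ndufa12, Ndufc2, Atp5mpl and a second gene under the symbol Atp5o, all at 0 in both Mmp3 negative libraries. They passed the count filter only through Mmp3 positive cells, so their number is no test. Leaving out Mmp3 negative library 1 let 4 of 93 tested members pass as higher (Ndufa9, Atp5k, mt-Atp6 and mt-Nd4l), against 1.44% of all genes, and leaving out Mmp3 negative library 2 let 4 of 94 pass (Ndufs6, Ndufa5, Ndufb11 and Atp5l), against 1.45%. Each of these 8 genes had its lowest value in the 1 Mmp3 negative library that was kept. DESeq2's Wald test on the same genes called 5 members higher and 2 lower, against 5.46% and 4.18% of all genes. The 5 were the 4 genes at 0 in both Mmp3 negative libraries and Ndufa5, which had 0 and 0.923 CPM there. The groups' CPM did not overlap for 25 of the 90 tested members in the higher direction and for 7 in the lower one, or 27.8% and 7.78%, against 22.5% and 17.3% of all genes tested.

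The 13 mitochondrial mRNAs took 0.827% and 0.711% of gene-matched estimated counts in Mmp3 positive cells, against 0.690% and 0.645% in Mmp3 negative cells. The 85 nuclear genes together took 0.246% and 0.241% in Mmp3 positive cells, against 0.236% and 0.220% in Mmp3 negative cells. For both shares each Mmp3 positive library was above both Mmp3 negative ones, and neither difference could pass a test at this size: with 2 libraries a group, the exact two-sided permutation test gave p = 0.333 for both, the smallest it can give. Mitochondrial over nuclear counts came to log2 ratios of 1.75 and 1.56 in Mmp3 positive cells and 1.55 and 1.55 in Mmp3 negative cells, so that the second Mmp3 positive library lay next to both Mmp3 negative ones. Per length, mitochondrial mRNAs made up 71.3% and 69.8% of OXPHOS TPM (counts divided by transcript length and scaled to a fixed total) in Mmp3 positive cells, against 66.8% and 68.5% in Mmp3 negative cells. Ribosomal and transfer RNAs of the mitochondrion were not analysed here.

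**Figure D1:**
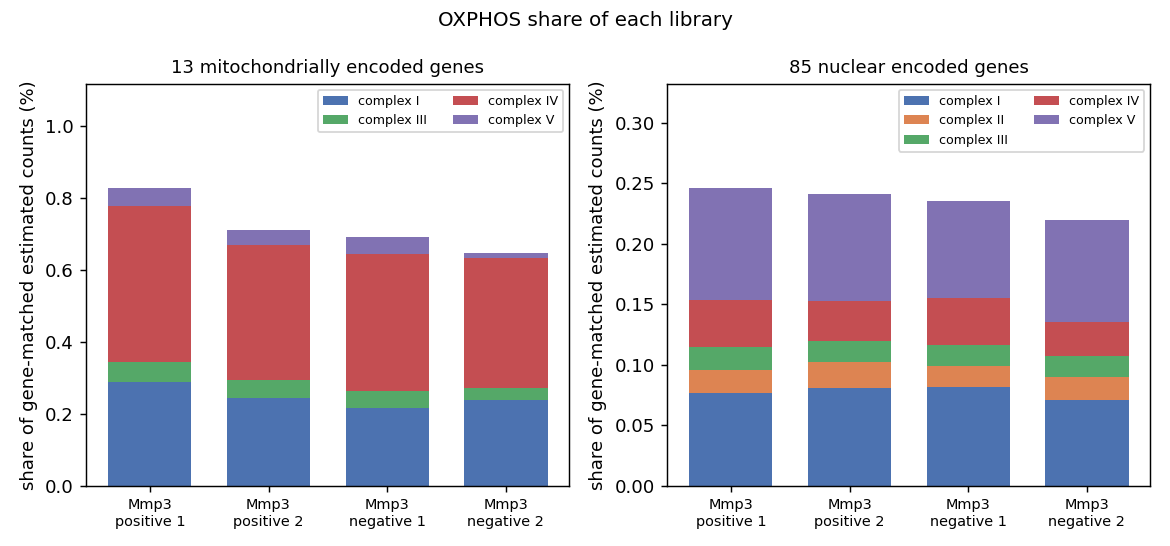
Stacked bars give the share of gene-matched estimated counts (%) held by OXPHOS genes in each library, Mmp3 positive at left, split by complex, for mitochondrial genes (left panel) and nuclear genes (right panel). The mitochondrial bars run from 0.645% to 0.827% and the nuclear ones from 0.220% to 0.246%, with complex IV the tallest mitochondrial block in all 4 libraries.

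Within the mitochondrial share, complex IV mRNAs took 0.435% and 0.376% in Mmp3 positive cells and 0.381% and 0.361% in Mmp3 negative cells. Complex I mRNAs took 0.288% and 0.245% in Mmp3 positive cells and 0.217% and 0.238% in Mmp3 negative cells. Complex V mRNAs took 0.0493% and 0.0421% in Mmp3 positive cells, against 0.0467% and 0.0116% in Mmp3 negative cells, where the second library stood far below the other 3. Of the 2 genes of complex V in mitochondrial DNA, mt-Atp6 was the one that was low there.

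Stretches of mitochondrial DNA have been copied into nuclear chromosomes during evolution, and such copies are annotated as pseudogenes. In GRCm38, 5 of them lie side by side on the minus strand of chromosome 1, from chr1:24612407 to chr1:24616197: Gm29216, Gm28661, Gm10925, Gm28437 and Gm10222, copies of mt-Co1, mt-Co2, mt-Atp6, mt-Co3 and mt-Nd4l. The transcripts below, from GENCODE M21, show how little sets each pair apart. Capitals mark the bases by which the mitochondrial transcript runs past its copy. The complete mt-Nd4l mRNA (chrM:9877-10173, plus strand), which encodes a proton-pumping subunit of complex I, is given with Gm10222 (chr1:24612407-24612700, minus strand), which equals its first 294 bases.
mt-Nd4l: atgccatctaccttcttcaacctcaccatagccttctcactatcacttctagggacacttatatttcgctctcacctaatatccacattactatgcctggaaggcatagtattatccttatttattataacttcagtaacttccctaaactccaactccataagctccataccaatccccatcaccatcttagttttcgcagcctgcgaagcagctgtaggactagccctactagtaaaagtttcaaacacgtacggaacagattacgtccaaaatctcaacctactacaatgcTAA
Gm10222: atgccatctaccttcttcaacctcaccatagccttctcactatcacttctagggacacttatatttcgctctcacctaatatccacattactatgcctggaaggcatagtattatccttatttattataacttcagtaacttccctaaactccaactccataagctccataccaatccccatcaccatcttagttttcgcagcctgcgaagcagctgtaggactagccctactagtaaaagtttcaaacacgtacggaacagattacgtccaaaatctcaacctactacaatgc

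The last 60 bases of mt-Co2 (chrM:7013-7696), which encodes the complex IV subunit that takes up electrons from cytochrome c, are given with the matching end of Gm28661 (chr1:24614885-24615565), whose 681 bases equal the first 681 of the 684 of mt-Co2. The same is shown for mt-Atp6 (chrM:7927-8607), which encodes a subunit of the proton channel of ATP synthase, and Gm10925 (chr1:24613974-24614651).
mt-Co2: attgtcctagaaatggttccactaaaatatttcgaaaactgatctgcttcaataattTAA
Gm28661: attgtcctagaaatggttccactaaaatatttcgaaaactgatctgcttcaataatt
mt-Atp6: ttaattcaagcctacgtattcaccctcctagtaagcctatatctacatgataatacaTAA
Gm10925: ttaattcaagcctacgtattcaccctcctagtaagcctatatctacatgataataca

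Gm29216 (chr1:24615706-24616197) matches the last 492 bases of mt-Co1 (chrM:5328-6872), the catalytic subunit of complex IV, except at 6 positions near its start: T1056A, C1057T, A1059G, A1060G, C1062A and A1066T, counted from the first base of mt-Co1 and written as mt-Co1 base, position, copy base. Bases 1054 to 1113 of mt-Co1 and the first 60 of Gm29216 are given with the differing bases in capitals.
mt-Co1: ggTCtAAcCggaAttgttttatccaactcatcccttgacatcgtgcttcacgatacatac
Gm29216: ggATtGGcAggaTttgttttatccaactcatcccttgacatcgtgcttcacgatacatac

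A read from the shared part fits the mRNA and its copy alike, and the estimated counts were divided between them differently from library to library. mt-Co2 itself held 5.09 and 5998 estimated counts in Mmp3 positive cells, against 0.422 and 178 in Mmp3 negative cells. Its copy Gm28661 held 13089 and 4843 in Mmp3 positive cells, against 12194 and 10014 in Mmp3 negative cells. The sum of the pair was 13094 and 10841 in Mmp3 positive cells and 12194 and 10192 in Mmp3 negative cells, so libraries far apart in mt-Co2 were close to each other in the sum. The log2 fold change of mt-Co2 was 4.89 (SE 2.81, edgeR adjusted p = 0.793) alone and -0.0048 (SE 0.18, adjusted p = 0.999) with its copy added.

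mt-Atp6 held 8538 and 7487 estimated counts in Mmp3 positive cells, against 7638 and 1366 in Mmp3 negative cells. Gm10925 held 233 and 15.98 in Mmp3 positive cells, against 4.21 and 3921 in Mmp3 negative cells, so the library low in mt-Atp6 was the one high in its copy. With the copy added, mt-Atp6 had 8771 and 7503 counts in Mmp3 positive cells and 7642 and 5287 in Mmp3 negative cells. Its log2 fold change was 0.76 (SE 0.69) alone and 0.23 (SE 0.21) with the copy. mt-Nd4l showed the same in the same library: its own counts were 1127 and 879 in Mmp3 positive cells and 518 and 98.8 in Mmp3 negative cells, while Gm10222 held 542 in Mmp3 negative library 2 and 0 in the other 3. Its log2 fold change was 1.63 (SE 0.78, edgeR adjusted p = 0.666) alone and 0.68 (SE 0.38, adjusted p = 0.783) with the copy. With the copy, mt-Nd4l had 59.3 and 44.75 CPM in Mmp3 positive cells, against 27.9 and 36.96 CPM in Mmp3 negative cells. Its groups thus stayed apart, while those of mt-Atp6 overlapped. When Mmp3 negative library 1 was left out, mt-Atp6 and mt-Nd4l passed the test on their own counts (edgeR adjusted p = 0.000679 and 0.0137), and neither did with copies added, a setting chosen after seeing the data.

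For mt-Co1 the division was more even. It held 55002 and 44594 estimated counts in Mmp3 positive cells and 48154 and 39967 in Mmp3 negative cells, and Gm29216 added 17602 and 13019 in Mmp3 positive cells and 19131 and 11047 in Mmp3 negative cells. A further copy, Gm13340 on chromosome 2, held at most 67.5 counts. The log2 fold change of mt-Co1 was 0.075 (SE 0.17) alone and 0.040 (SE 0.19) with copies. mt-Co3, another core subunit of complex IV, contains all 783 bases of Gm28437, yet the copy held under 1 count in each library. mt-Co3 had 27142 and 24987 counts in Mmp3 positive cells and 21273 and 23239 in Mmp3 negative cells. A copy as alike as those of mt-Co2 and mt-Atp6 thus held almost no counts. Whether any of the counts came from transcripts of the pseudogenes was not tested.

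**Figure D2:**
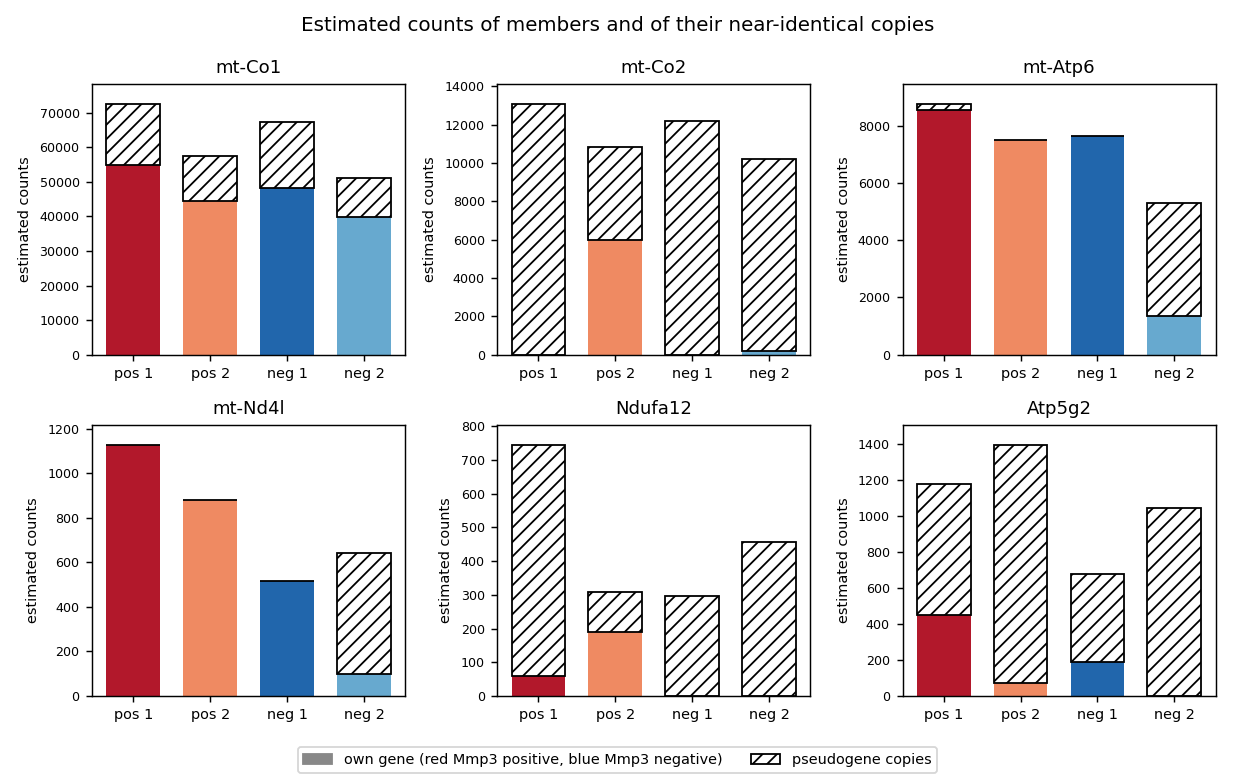
Bars give estimated counts per library (pos, Mmp3 positive; neg, Mmp3 negative) of 6 OXPHOS genes, with the counts of their pseudogene copies hatched on top. For mt-Co2 nearly all counts sit in the copy in 3 libraries and 4843 do in Mmp3 positive library 2, while the full bars span only 10192 to 13094.

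Adding copies also changed the comparison of the genomes. With them the mitochondrial share was 0.991% and 0.800% in Mmp3 positive cells, against 0.862% and 0.791% in Mmp3 negative cells, and the groups overlapped (exact two-sided permutation p = 0.667). The log2 ratio of mitochondrial to nuclear counts became 1.96 and 1.68 in Mmp3 positive cells and 1.83 and 1.78 in Mmp3 negative cells (exact permutation p = 1). The nuclear share, 0.256% and 0.250% in Mmp3 positive cells against 0.242% and 0.230% in Mmp3 negative cells, kept its order.

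Among the remaining complex I mRNAs of the mitochondrion, 2 had Mmp3 positive libraries above both Mmp3 negative ones. mt-Nd5, a proton-pumping subunit, had 1100 and 984 CPM in Mmp3 positive cells, against 878 and 885 CPM in Mmp3 negative cells, a log2 fold change of 0.24 (SE 0.14, edgeR adjusted p = 0.802). mt-Nd1, which lies where quinone binds, had 553 and 485 CPM in Mmp3 positive cells, against 438 and 449 CPM in Mmp3 negative cells, a log2 fold change of 0.23 (SE 0.15). Neither gene passed the test.

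For the other complex I mRNAs the groups overlapped. mt-Nd4 had 734 and 577 CPM in Mmp3 positive cells and 499.5 and 581 CPM in Mmp3 negative cells. mt-Nd2 had 185 and 225 CPM in Mmp3 positive cells and 144 and 224 CPM in Mmp3 negative cells, with the second library of each group nearly equal. Both encode antiporter-like proton pumps. mt-Nd3 had 100.5 and 69.2 CPM in Mmp3 positive cells and 54.1 and 112 CPM in Mmp3 negative cells, so its Mmp3 negative libraries enclosed the Mmp3 positive ones. mt-Nd6, alone among the 13 in being read from the minus strand, had 127 and 115 CPM in Mmp3 positive cells and 95.5 and 149 CPM in Mmp3 negative cells. It overlaps mt-Nd5 by 14 bases, and since the strand setting of the counting is not given in the sources used here, its reads cannot be told apart from antisense RNA.

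mt-Cytb, the mitochondrial subunit of complex III, had 541.5 and 493 CPM in Mmp3 positive cells, against 452 and 356 CPM in Mmp3 negative cells, a log2 fold change of 0.36 (SE 0.18, edgeR adjusted p = 0.711). Its groups did not overlap. mt-Atp8, which encodes a small ATP synthase subunit and shares 43 bases with mt-Atp6, had 40.0 and 49.1 CPM in Mmp3 positive cells and 47.1 and 39.0 CPM in Mmp3 negative cells, so its groups overlapped, with no copy found. Over the mitochondrial mRNAs the median log2 fold change was 0.23, with 12 of 13 above 0, and 0.15 with copies added, with 11 of 13 above 0. Over all genes tested the median was 0.019 and 51.1% lay above 0. Since the 13 share transcripts and, in part, reads, they are not 13 separate observations.

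**Figure D3:**
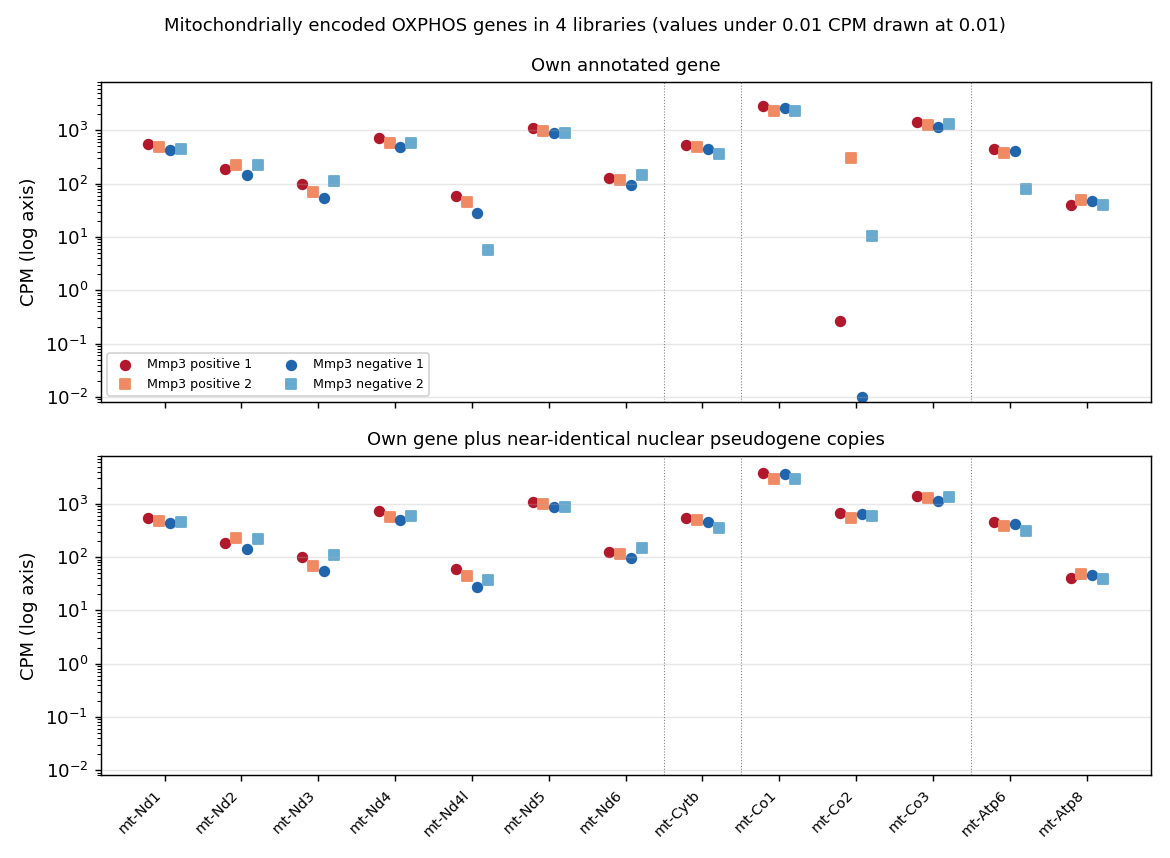
Points give CPM (log axis) of the 13 mitochondrial mRNAs in each library, from own counts (top) and with pseudogene copies added (bottom), Mmp3 positive libraries left of Mmp3 negative ones. The wide spread of mt-Co2, mt-Nd4l and mt-Atp6 in the top panel narrows in the bottom one, where mt-Co2 runs from 552 to 689 CPM.

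By TPM, which allows levels to be set side by side between genes, mt-Co3 and mt-Co1 held the first and second place among the 98 members in all 4 libraries, in either order, with means of 2414 and 2062 TPM over the libraries. The next by mean TPM were mt-Atp8 at 809, mt-Atp6 at 698 and mt-Nd1 at 696. The place of mt-Atp8 rests on division by its short length. It held 760 and 964 estimated counts in Mmp3 positive cells, against 8538 and 7487 for mt-Atp6. In Mmp3 negative cells it held 872.5 and 677, against 7638 and 1366 for mt-Atp6. This order rests on each gene's own counts, and the place of mt-Co2, rank 14, depends on the reads assigned to Gm28661. The nuclear gene with the highest level was Atp5b at 543 TPM, in rank 9. TPM of single genes varied widely between libraries: mt-Nd1 had 902 and 709 TPM in Mmp3 positive cells and 419 and 754 TPM in Mmp3 negative cells, and in Mmp3 negative library 1 a single transcript matched to no gene took 165817 TPM, which lowers all others in that library. For most neighbours in this order the difference was therefore smaller than the spread over libraries. Spearman's rho of members' TPM between library pairs lay between 0.720 and 0.818 over the 98 genes, a description without a test.

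The median log2 fold change of nuclear members was 0.18, with 50 of 77 tested members above 0. By complex the medians were 0.26 for complex I, 0.23 for complex II, 0.10 for complex III, 0.023 for complex IV and 0.26 for complex V. The complex IV median lay below 0 with DESeq2 (-0.023), with the set number as a block (-0.043) and with an offset for transcript length (-0.17), and without Mmp3 positive library 1 it was -0.33. The median over all nuclear members was carried in part by genes at 0 counts in some library. Such genes numbered 10 in complex I, 0 in complex II, 1 in complex III, 1 in complex IV and 4 in complex V. The 61 tested nuclear members with counts in all 4 libraries had a median of 0.11 and 53 of them lay within 1 log2 unit of 0, while the 16 at 0 somewhere had a median of 1.92 and ran from -2.93 to 9.89. Of the 77, 1 and 2 were at 0 in the Mmp3 positive libraries, against 10 and 9 in the Mmp3 negative libraries. Over all genes tested, 3.99% and 5.985% were at 0 in the Mmp3 positive libraries and 10.02% and 10.14% in the Mmp3 negative ones, so zeros were more frequent in Mmp3 negative cells in general. Of the 77 nuclear members, 20.8% were at 0 in at least 1 library, against 21.7% of all genes tested. Among genes with 10 or more counts, the Mmp3 positive libraries held 14372 and 13708 and the Mmp3 negative ones 12946 and 12691. How far this difference in detected genes bears on the OXPHOS medians was not tested.

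**Figure D4:**
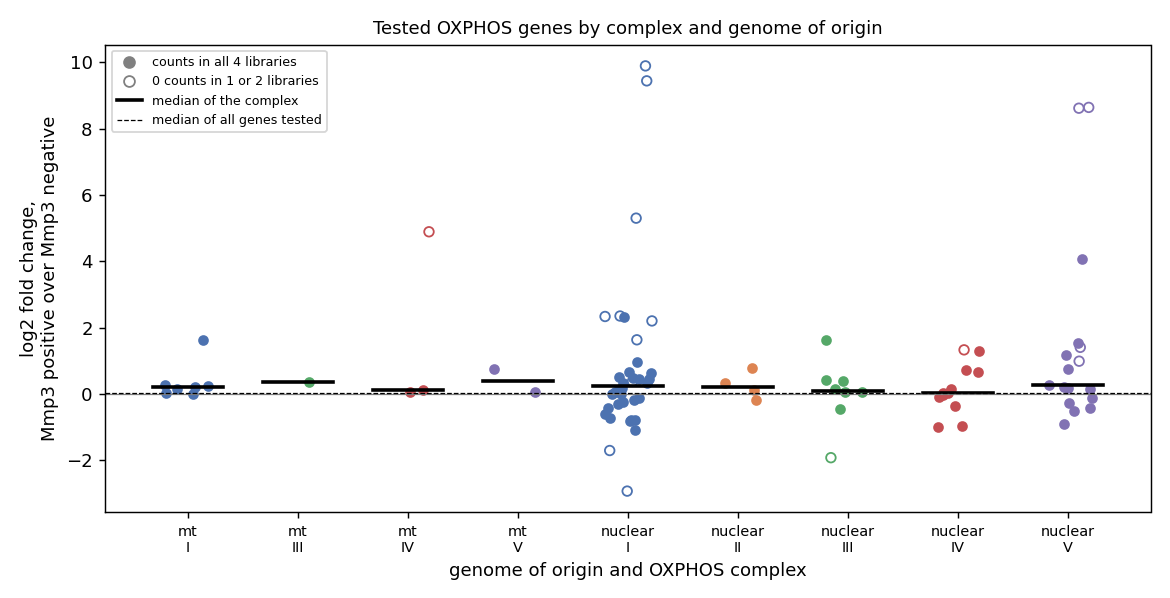
Each point is a tested OXPHOS gene, placed by genome of origin and complex, with its log2 fold change (Mmp3 positive over Mmp3 negative) on the vertical axis; horizontal position within a column is random. Bars are medians, from 0.023 to 0.40, and open points are genes at 0 in some library. Among nuclear genes the open points run from -2.93 to 9.89 and the filled ones from -1.10 to 4.07.

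Complex I takes electrons from NADH. Ndufa13, an accessory subunit also known as GRIM-19 (chr8:69894180-69902558), was lower in both Mmp3 positive libraries, with 40.1 and 42.6 CPM, against 63.2 and 80.8 CPM in Mmp3 negative cells. Its log2 fold change was -0.80 (SE 0.31, edgeR adjusted p = 0.519), and DESeq2 called it lower (-0.84, adjusted p = 0.0279). Ndufa5, an accessory subunit of the peripheral arm (chr6:24518666-24528013), had 9.53 and 27.3 CPM in Mmp3 positive cells, against 0 and 0.923 CPM in Mmp3 negative cells. Its log2 fold change was 5.30 (SE 2.22, edgeR adjusted p = 0.582), and DESeq2 called it higher (adjusted p = 0.0161). With 0 and 16 estimated counts in Mmp3 negative cells, Ndufa5 would not have passed the count filter without its Mmp3 positive libraries.

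A pair of complex I genes held no count in either Mmp3 negative library, and they were among the 4 members higher at an unadjusted p under 0.05. Ndufc2, an accessory subunit of the membrane arm (chr7:97400003-97407802), had 82 and 98 estimated counts in Mmp3 positive cells. This was 4.32 and 4.99 CPM, and the gene did not pass the test (edgeR adjusted p = 0.480). The mean CPM was 27.8-fold that of a floor of 3 counts per Mmp3 negative library. Both genes of the pair passed the count filter only through Mmp3 positive cells and were picked for these zeros, so the fold is no test. A 0 does not bound a level either: Ndufb11 held 0 and 349 counts in Mmp3 negative cells. Ndufa12, an accessory subunit (chr10:94198720-94221443), had 58.6 and 189 counts in Mmp3 positive cells and 0 in both Mmp3 negative libraries. Its processed pseudogene Gm15920 on chromosome 5 differs from it at A225G and T504C over 402 bases, counted from the start of the Ndufa12 transcript with the copy's base last. Gm15920 held 686 and 119 counts in Mmp3 positive cells, against 296 and 458 in Mmp3 negative cells. With the copy added, Ndufa12 came to 39.2 and 15.7 CPM in Mmp3 positive cells and 15.97 and 26.4 CPM in Mmp3 negative cells, and the groups overlapped (log2 fold change 0.37, SE 0.68). DESeq2's calls of both genes on own counts had adjusted p = 0.00783 for Ndufc2 and 0.00351 for Ndufa12.

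Complex II, or succinate dehydrogenase, links the citric acid cycle to the respiratory chain. Its flavoprotein Sdha had 125 and 120 CPM in Mmp3 positive cells, against 125.5 and 99.0 CPM in Mmp3 negative cells. Sdhb, the iron-sulfur subunit, had 23.1 and 21.4 CPM in Mmp3 positive cells and 6.80 and 18.9 CPM in Mmp3 negative cells (log2 fold change 0.79, SE 0.81), so that its groups were apart, with Mmp3 negative library 2 close to the Mmp3 positive ones. The membrane anchors Sdhc and Sdhd overlapped between groups, at 33.8 and 37.5 CPM for Sdhc in Mmp3 positive cells and 23.0 and 33.8 CPM in Mmp3 negative cells. Sdhd had 9.89 and 43.6 CPM in Mmp3 positive cells and 20.1 and 40.4 CPM in Mmp3 negative cells, a spread between libraries of 1 group as wide as any between groups.

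Complex III carries electrons from ubiquinol to cytochrome c. Its small subunit gene Uqcr11, the nuclear member of the complex with the highest mean TPM, had 33 and 41.6 CPM in Mmp3 positive cells, against 46.3 and 54.7 CPM in Mmp3 negative cells (log2 fold change -0.44, SE 0.35, edgeR adjusted p = 0.930). Uqcrh, the hinge protein, went the other way, with 21.5 and 22.1 CPM in Mmp3 positive cells, against 9.495 and 4.44 CPM in Mmp3 negative cells (log2 fold change 1.64, SE 0.90, edgeR adjusted p = 0.761). The groups of both genes were apart, in opposite directions. The core proteins Uqcrc1 and Uqcrc2 overlapped between groups, with log2 fold changes of 0.054 (SE 0.32) and 0.059 (SE 0.52).

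Complex IV, cytochrome c oxidase, has subunits with paralogues that differ between tissues. Cox4i1, the common form of a regulatory subunit, had 93.4 and 52.8 CPM in Mmp3 positive cells and 59.5 and 89.0 CPM in Mmp3 negative cells. Its paralogue Cox4i2 had 2.58 and 3.41 CPM in Mmp3 positive cells and 11.01 and 1.04 CPM in Mmp3 negative cells. Cox6a1, the common form, had 78.4 and 63.4 CPM in Mmp3 positive cells, against 55.7 and 31.0 CPM in Mmp3 negative cells (log2 fold change 0.71, SE 0.39, edgeR adjusted p = 0.762), and its groups were apart. Cox6a2, the form of heart and skeletal muscle, held 54 counts in Mmp3 positive library 1 and at most 1 in the other 3. Cox5a, a subunit on the matrix side, had 14.9 and 7.18 CPM in Mmp3 positive cells, against 27.7 and 15.5 CPM in Mmp3 negative cells (log2 fold change -0.96, SE 0.84). Its groups were apart by less than 1 CPM.

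Cox7a1 and Cox8b, the forms known from muscle and brown fat, were each seen in a single library. Cox7a1 held 105 estimated counts in Mmp3 negative library 1 and 0 in the other 3, whereas its common form Cox7a2 had 19.95 and 6.31 CPM in Mmp3 positive cells and 10.9 and 12.7 CPM in Mmp3 negative cells. Cox8b held 41 counts in Mmp3 positive library 2 and 0 in the other 3, while Cox8a had 22.4 and 24.9 CPM in Mmp3 positive cells and 38.3 and 22.9 CPM in Mmp3 negative cells. Cox6a2, Cox7a1 and Cox8b did not hold enough counts to be tested. Among the other brown and beige adipocyte markers, Ucp1, Elovl3 and Cited1 were at 0 in all 4 libraries, and the list of 10 summed to 24.3 and 34.0 CPM in Mmp3 positive cells and 42.1 and 46.9 CPM in Mmp3 negative cells. Cox7a2l, linked to supercomplex assembly, had 40.8 and 28.6 CPM in Mmp3 positive cells and 36.2 and 37.1 CPM in Mmp3 negative cells, enclosing the Mmp3 negative libraries. Cox6b1 had 33.1 and 20.5 CPM in Mmp3 positive cells and 38.7 and 13.9 CPM in Mmp3 negative cells, and Cox7b had 5.16 and 13.3 CPM in Mmp3 positive cells and 7.34 and 0 CPM in Mmp3 negative cells. Both overlapped between groups. Ndufa4 had 39 and 264 counts in Mmp3 positive cells and 0 and 53 in Mmp3 negative cells, and its paralogue Ndufa4l2 held counts only in the second library of each group, 28 in Mmp3 positive cells and 81 in Mmp3 negative cells.

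**Figure D5:**
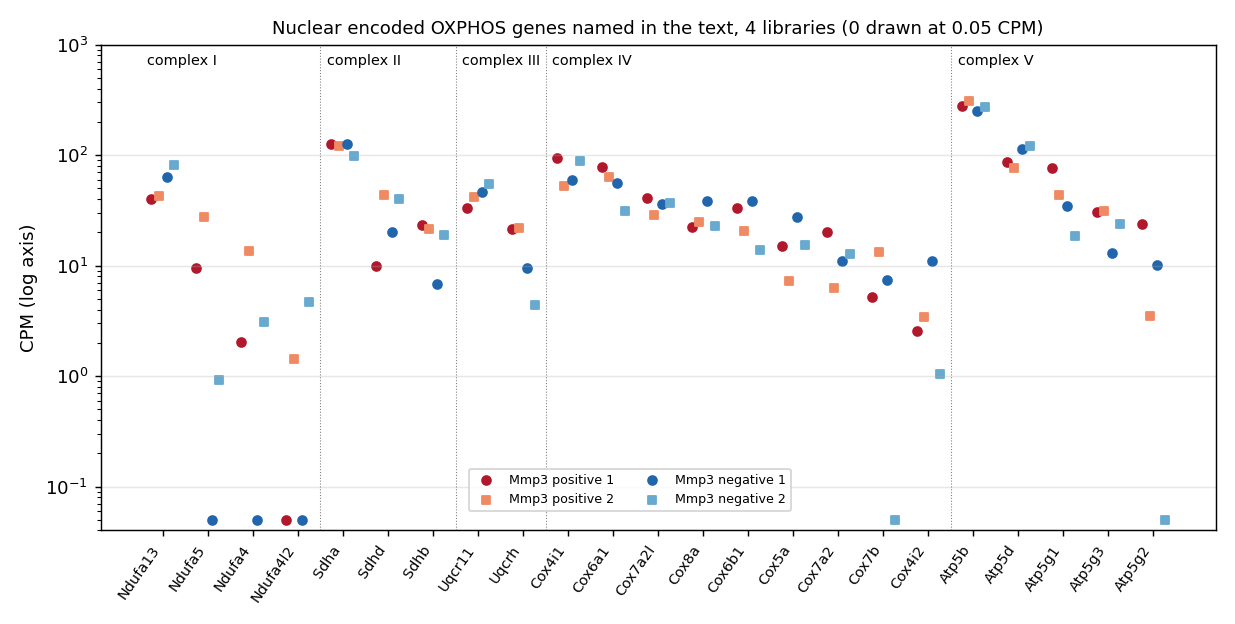
Points give CPM (log axis) of the tested nuclear OXPHOS genes picked by level, p-value or isoform family, grouped by complex, with Mmp3 positive libraries left of Mmp3 negative ones. Atp5b and Sdha stay within a narrow band in all 4 libraries, while Cox4i2, at 2.58 and 3.41 CPM in Mmp3 positive cells, had 11.01 and 1.04 CPM in Mmp3 negative cells.

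Complex V makes ATP. Atp5b, its catalytic beta subunit, had 278 and 311.5 CPM in Mmp3 positive cells, against 250.3 and 272 CPM in Mmp3 negative cells, a log2 fold change of 0.18 (SE 0.17). The groups were apart by a margin smaller than the spread within either, and an offset for transcript length turned the direction (-0.31). Atp5d, the delta subunit of the central stalk (chr10:80138632-80145818), had 86.7 and 76.7 CPM in Mmp3 positive cells, against 113 and 119.8 CPM in Mmp3 negative cells. Its log2 fold change was -0.51 (SE 0.23, edgeR adjusted p = 0.615), and DESeq2 called it lower (-0.56, adjusted p = 0.0442). Atp5mpl, a small membrane subunit, had 85 and 17 counts in Mmp3 positive cells and 0 in both Mmp3 negative libraries. In Mmp3 positive cells this was 4.473 and 0.8655 CPM. The mean of these was 15.9-fold the floor of 3 counts per library, a value carried by Mmp3 positive library 1. Atp5mpl passed the count filter through Mmp3 positive cells alone. It did not pass in edgeR (adjusted p = 0.480) and was called by DESeq2 (adjusted p = 0.0443).

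Atp5g1, Atp5g2 and Atp5g3 encode the same mature c subunit of the ATP synthase rotor, so their sum gives the message for that subunit. The sum was 131 and 78.1 CPM in Mmp3 positive cells, against 57.6 and 42.5 CPM in Mmp3 negative cells. Atp5g1 had 76.6 and 43.4 CPM in Mmp3 positive cells and 34.4 and 18.6 CPM in Mmp3 negative cells (log2 fold change 1.18, SE 0.50, edgeR adjusted p = 0.582). On own counts it was the highest of the 3 genes in every library except Mmp3 negative library 2. Atp5g3 had 30.6 and 31.2 CPM in Mmp3 positive cells, against 12.95 and 23.99 CPM in Mmp3 negative cells. Groups of both were apart and neither passed the test. Atp5g2 has a copy, Gm10175 on chromosome 7, identical over its 645 bases, which held 730 and 1290 counts in Mmp3 positive cells and 428 and 1045 in Mmp3 negative cells, against 448 and 68.8 for Atp5g2 itself in Mmp3 positive cells and 189 and 0 in Mmp3 negative cells. With copies the sum of the 3 genes was 169 and 146 CPM in Mmp3 positive cells, against 83.8 and 103 CPM in Mmp3 negative cells, still without overlap.

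Altogether 60 copies with at least 95% identity were found for 35 members, and 22 of them held counts, belonging to 6 mitochondrial and 11 nuclear members. Ndufb4, a complex I subunit, was at 0 in all 4 libraries, and its identical copy Ndufb4c held 105 and 0 counts in Mmp3 positive cells and 0 and 69 in Mmp3 negative cells. Cox8c was at 0 in all 4 libraries and had no counts in a copy. The other members too low to test were Cox6b2, Cox7b2 and Atp5s. A second gene under the symbol Atp5o, the stalk subunit, held counts only in Mmp3 positive cells, at 1.74 and 3.51 CPM. It passed the count filter through these cells alone and was among the members higher at an unadjusted p under 0.05. It did not pass in edgeR (adjusted p = 0.480) and was called by DESeq2 (adjusted p = 0.034). It shares its symbol and locus with the first, so its level is uncertain. The first had 28.9 and 26.1 CPM in Mmp3 positive cells and 15.8 and 30.2 CPM in Mmp3 negative cells.

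Nuclear OXPHOS counts were spread over several kinds of transcript. Protein-coding transcripts held 85.9% and 83.0% of the nuclear members' counts in Mmp3 positive cells, against 77.3% and 81.3% in Mmp3 negative cells. Transcripts with a retained intron held 8.99% and 9.47% in Mmp3 positive cells and 13.4% and 9.86% in Mmp3 negative cells, so the distance lay mainly in Mmp3 negative library 1. Over all protein-coding genes, retained introns held 8.67% and 8.53% in Mmp3 positive cells and 9.33% and 8.80% in Mmp3 negative cells. Protein-coding transcripts held 81.6% and 79.7% of the counts of all these genes in Mmp3 positive cells, against 77.8% and 78.6% in Mmp3 negative cells. The direction was thus the same as in the nuclear members.

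Other genes of mitochondrial and energy metabolism were taken from lists chosen with earlier results of these data known. Of the 40 tested OXPHOS assembly factors, 0 passed the edgeR test, and the median log2 fold change was -0.19. At an unadjusted p under 0.05 there were 4 higher and 0 lower, against 5.62% and 3.25% of all genes tested. All 4, Lyrm7, Coa4, Coa6 and Atpaf1, were at 0 CPM in both Mmp3 negative libraries, where zeros were more frequent in general. The one with the smallest p, Atpaf1, which helps assemble the catalytic part of ATP synthase, had 16.9 and 7.69 CPM in Mmp3 positive cells and 0 CPM in both Mmp3 negative libraries. Cox17, a copper chaperone of complex IV and the most abundant of the list by TPM, had 13.1 and 28.6 CPM in Mmp3 positive cells and 26.7 and 25.4 CPM in Mmp3 negative cells.

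Of 18 citric acid cycle and pyruvate dehydrogenase genes, 0 passed, 15 lay above 0, and the median was 0.37. Ogdh, a subunit of the 2-oxoglutarate dehydrogenase complex, had 205 and 185 CPM in Mmp3 positive cells, against 113 and 113 CPM in Mmp3 negative cells (log2 fold change 0.79, SE 0.19, edgeR adjusted p = 0.480). The 16 glycolysis genes had a median of 0.17 and 0 at an unadjusted p under 0.05, and Pkm, the pyruvate kinase of most tissues, had 2226 and 2485 CPM in Mmp3 positive cells, against 2028 and 2035 CPM in Mmp3 negative cells. Ldha, a lactate dehydrogenase subunit and the glycolysis gene with the smallest p, had 381 and 294 CPM in Mmp3 positive cells, against 221 and 258 CPM in Mmp3 negative cells (edgeR adjusted p = 0.569).

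The 77 mitochondrial ribosomal protein genes, whose products translate the 13 mRNAs, had a median of 0.15. At an unadjusted p under 0.05 there were 4 higher and 0 lower, against 5.62% and 3.25% of all genes tested. Of the 4, Mrpl14 and Mrpl53 were at 0 CPM in both Mmp3 negative libraries. Mrps33 had 0 and 0.0577 CPM there, and Mrpl24 had 28.6 and 34.4 CPM. Mrpl52, the most abundant by TPM, had 101 and 151 CPM in Mmp3 positive cells, against 58.3 and 87.1 CPM in Mmp3 negative cells, and Mrpl53, with the smallest p, had 8.37 and 6.72 CPM in Mmp3 positive cells and 0 in both Mmp3 negative libraries. Neither passed the test. The 25 genes of mitochondrial transcription and RNA processing had a median of -0.013 with 1 higher, Fastkd2. Fastkd2 had 1.895 and 9.98 CPM in Mmp3 positive cells and 0 CPM in both Mmp3 negative libraries, so it passed the count filter only through Mmp3 positive cells. The 11 nuclear regulators had a median of 0.16 with 1 higher. That one was Nfe2l1, with 486 and 512 CPM in Mmp3 positive cells and 347 and 403 CPM in Mmp3 negative cells (log2 fold change 0.41, SE 0.16, edgeR adjusted p = 0.526). The 8 electron carriers and subunits outside the rule had a median of 0.00087. Dhodh, which feeds electrons from pyrimidine synthesis into ubiquinone, had the smallest p, with 41.6 and 42.1 CPM in Mmp3 positive cells and 63.8 and 72.9 CPM in Mmp3 negative cells (edgeR adjusted p = 0.581). Etfb, a subunit of the electron transfer flavoprotein, had 55.6 and 52.6 CPM in Mmp3 positive cells and 35.5 and 36.04 CPM in Mmp3 negative cells. Among them Cycs, cytochrome c, had 32.7 and 17.7 CPM in Mmp3 positive cells and 2.43 and 0 CPM in Mmp3 negative cells (log2 fold change 4.37, SE 2.04, edgeR adjusted p = 0.646), though pseudogene copies of genes outside the members were not searched for.

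Over the 19 heat shock and immediate early genes the median was -1.10. The 19 were chosen with earlier results of these data known, so the number of them that were lower is no test. At an unadjusted p under 0.05, 3.25% of all genes tested were lower, against 12 of these 19. They included 2 of the 3 genes called over the whole table, Hspa1a and Hspa1b, whose products are stress-induced chaperones and which are near-identical to each other, so that their division of reads is uncertain. Hspa1a had 355 and 408 CPM in Mmp3 positive cells, against 2665 and 2402 CPM in Mmp3 negative cells (log2 fold change -2.73, SE 0.16, edgeR adjusted p = 0.0251). The call was lost with the transcript length offset (Hspa1a adjusted p = 0.0977, Hspa1b 0.113), with limma on TPM (0.545 for both), without Mmp3 positive library 1 (Hspa1a 0.0516, Hspa1b 0.0759) and without Mmp3 positive library 2 (Hspa1a 0.0655, Hspa1b 0.118). The part of this difference in the OXPHOS values was not tested.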

How the data were processed

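The authors deposited kallisto tables that give, for 115270 transcripts in each library, estimated counts, effective lengths and TPM, per the file headers. The authors quantified reads with kallisto 0.45.0 and the build was GRCm38, per the submitters' processing notes; transcript set, strand setting and trimming are not given in the sources used here. RNA was extracted with a kit for fixed tissue and depleted of ribosomal RNA before strand-specific library preparation, per the labels' protocols. kallisto divides reads among similar transcripts, which leaves the counts of near-identical genes uncertain.

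Transcripts were matched to GENCODE M21 by identifier without version, 113580 in all. The 1690 unmatched ones, left out, held 0.809% and 0.995% of counts in the Mmp3 positive libraries and 2.08% and 0.729% in the Mmp3 negative ones. Counts were summed per gene, rounded, filtered by filterByExpr (minimum count 10) and TMM-scaled. They were tested over all genes in edgeR 4.0.16 under R 4.3.3 by glmQLFit and glmQLFTest (two-sided, Benjamini-Hochberg, threshold 0.05), with 2 residual degrees of freedom. The SE is the absolute log2 fold change divided by the root of F. DESeq2 1.42.0 and limma 3.58.1 on log2(TPM + 1) were alternatives, and the script was tested on simulated data. Copies were pseudogenes aligned by BLAST 2.17.0 at 95% identity or more over at least 200 bases or 50% of the shorter transcript.

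Named genes were all mitochondrial members, the most abundant and the smallest p in each direction of each nuclear complex (average logCPM of at least 3), and the isoform families; Ndufa12, Ndufc2, Atp5mpl, the second Atp5o, Sdhc, Uqcrc1, Uqcrc2, Ndufb4, Cycs and the members called when a library was left out were chosen after their values were seen. Members and lists were chosen with earlier results of these data known. Some genes that the rule names are not reported here. No sample was dropped.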

Additional observations from a re-analysis of the deposited data

How the results depend on the processing

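Other settings were DESeq2 size factors, no count filter, DESeq2, a replicate block, leaving out each library, an offset for transcript length, protein-coding genes only, nuclear genes only, limma on TPM and, chosen after seeing the data, adding pseudogene copies. The summed mitochondrial share, the summed nuclear share and their ratio kept their direction in each of them for which they were computed. As they are sums of counts within a library, scaling, the count filter or the choice of test could not change them. Without Mmp3 positive library 1 the log2 ratio was 1.558 in Mmp3 positive cells, against a mean of 1.551 in Mmp3 negative cells. With copies added and Mmp3 positive library 1 left out as well, the mitochondrial share was 0.800% in Mmp3 positive cells, against a mean of 0.826% in Mmp3 negative cells, and the log2 ratio 1.68, against 1.81. Without Mmp3 negative library 2 the mitochondrial complex V share averaged 0.0457% in Mmp3 positive cells, against 0.0467% in Mmp3 negative cells, and the nuclear complex I share 0.0788%, against 0.0814%. The cause of the changes below was not tested. With 2 libraries a group, left-out fits assume that a lone library varies like the other group. All genes called numbered 4 higher and 23 lower with no filter, 775 and 593 by DESeq2 (members 5 and 2), 0 and 0 by limma and 0 lower with the length offset. The set number was used as a replicate block although the samples share only a number (correlation of deviations 0.026 over 2 pairs); 4 genes were then called lower, the medians were 0.26 (nuclear) and 0.43 (nuclear complex I), and mt-Nd6 (0.021) and Cox7a2 (-0.066) reversed.

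The complex IV median was -0.023 with DESeq2 or its size factors, -0.043 with the replicate block and -0.17 with the length offset. The nuclear median was 0.13 with DESeq2 or its size factors, 0.24 with the length offset, 0.64 with limma and 0.15 with copies (complex I 0.19). limma moved the median of all genes to 0.29, and complexes I, II, III and V to 0.65, 0.92, 0.37 and 0.78; the replicate block moved all genes to 0.12. Reversed were mt-Nd3 (-0.012) and Cox6b1 (-0.021) with size factors or DESeq2. With the length offset they were mt-Nd3 (-0.0095), mt-Atp8 (-0.012), Atp5b (-0.31), Cox7a2 (-0.25), Cox7b (-0.92) and Ndufa4l2 (0.24). With limma they were mt-Nd6 (0.29), Cox4i1 (0.056), Atp5b (-0.021), Cox4i2 (0.0078), Cox7a2 (-0.15), Cox7a2l (0.18) and Ndufa4l2 (0.027), and with copies mt-Co2 (-0.0048).

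Leaving out 1 library gave 0 to 4 members called higher, 1 to 237 genes called higher and 1 to 116 lower, the high counts without an Mmp3 negative library, which moved the median of all genes to 0.17. Medians ran from 0.25 to 0.31 (nuclear), 0.15 to 0.39 (complex I), 0.15 to 0.53 (complex II), 0.027 to 0.28 (complex III), -0.33 to 1.06 (complex IV) and 0.29 to 0.73 (complex V). Log2 fold changes that reversed ran from -0.40 to 0.65 (mt-Nd3), -0.11 to 0.24 (mt-Co1), -4.26 to 14.5 (mt-Co2), -0.13 to 0.51 (mt-Nd2), -0.30 to 0.34 (mt-Nd6), -0.11 to 0.19 (mt-Atp8), -0.035 to 0.30 (Sdha), -1.61 to 0.53 (Sdhd), -0.49 to 0.33 (Cox4i1), -1.87 to 1.52 (Cox4i2), -0.53 to 0.94 (Cox6b1), -0.90 to 0.75 (Cox7a2), -0.36 to 0.15 (Cox7a2l), -0.69 to 0.041 (Cox8a), -8.43 to 6.78 (Ndufa4l2) and -0.53 to 10.98 (Atp5g2). With copies added and 1 library left out, mt-Co1 ran from -0.16 to 0.21 (-0.10 without Mmp3 negative library 2) and mt-Co2 from -0.17 to 0.14 (-0.083 without Mmp3 negative library 2). Genes of few counts limit these comparisons.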
